A study of Mus musculus with 4 samples.

Results

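The nuclear genes for subunits of the mitochondrial respiratory chain and of ATP synthase were measured in poly(A) RNA-seq libraries of the mouse embryonic skull vault, the calvaria. Members were the entries of the count table whose Ensembl identifier maps in GENCODE (release M21, mouse build GRCm38) to a protein-coding gene of these families. The families were taken by symbol: Ndufa, Ndufb, Ndufc, Ndufs and Ndufv with a number, Uqcr, Cox4 to Cox8, Atp5, Cyc1 and Cycs. This gave 83 of 55487 entries and 82 symbols, because Atp5o is listed under 2 identifiers. All libraries came from embryos of stage E14.5. There were 2 libraries of the frontal bone and 2 in which the parietal and interparietal bones share a library, within a study of vesicles that carry citrate and of mineral formation. Genotype, strain, sex, treatment and the number of embryos per library are not stated in the labels used here. Nor is it stated that the libraries of a group came from different animals, so every p below reflects only how far these libraries vary, and that variation may be technical. Each library is a bulk sample, in which fewer cells of a type and less RNA per cell cannot be told apart.

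Oxidative phosphorylation takes place in the inner mitochondrial membrane. Complex I oxidises NADH, complex III passes electrons from ubiquinol to cytochrome c, complex IV hands them to oxygen, and complex V (ATP synthase) makes ATP with the proton gradient that the other complexes build. Complexes I, III, IV and V each combine many nuclear-encoded subunits with a few encoded by the mitochondrial genome. Core subunits carry the redox centres or the rotary catalysis, and accessory subunits surround them. The nuclear genes have housekeeping promoters, many of which bind NRF1, the ETS factor GABP or YY1. Bone-forming cells use both glycolysis and oxidative phosphorylation.

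Because promoters of this family are known for shared factor sites, the stretches around such letters are shown for members that the results below turn on and for the other members with the longer NRF1 core. Promoters of 66 members were found in the RefSeq table (build GRCm38.p6), which holds 300 bases per gene, from 250 before to 50 after the annotated start. Both strands were searched. The NRF1 core GCGCATGCGC, which reads the same on both strands, was in 5 of 66 members (7.58%) and in 1.47% of the 17492 protein-coding genes in the table. Its windows, 30 bases each on the gene's strand with the core in capitals, lie at chr15:102671070-102671099 (Atp5g2, minus strand), chr17:56717692-56717721 (Ndufa11, plus), chr5:108434430-108434459 (Atp5k, minus), chr5:115349101-115349130 (Cox6a1, minus) and chr9:108936668-108936697 (Uqcrc1, plus).
Atp5g2: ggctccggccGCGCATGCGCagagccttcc
Ndufa11: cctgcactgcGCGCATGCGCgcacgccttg
Atp5k: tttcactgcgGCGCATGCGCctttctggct
Cox6a1: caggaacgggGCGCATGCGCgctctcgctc
Uqcrc1: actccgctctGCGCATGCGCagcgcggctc

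The core began 42, 60, 50 and 162 bases before the start in Atp5g2, Ndufa11, Atp5k and Cox6a1 and 31 bases after it in Uqcrc1. Atp5g2 and Ndufa11 are among the members whose frontal excess was largest, while Atp5k, Cox6a1 and Uqcrc1 did not pass the test. The shorter core GCATGCGC, which is contained in the longer one, was in 10 of 66 members (15.2%) against 3.94% of all genes. The ETS letters CCGGAAG, used by GABP, were in 14 members (21.2%) against 12.9%. The YY1 letters AAGATGGC were in 10 members (15.2%) against 3.57%, and TATAAA was in 7 (10.6%) against 14.8%. A match is only a run of letters and not a measured binding site.

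The next windows, with the ETS letters in capitals, come from members called higher in frontal libraries: chr7:30626124-30626153 (Cox6b1, minus strand, where the letters lie on the opposite strand), chr8:83566727-83566756 (Ndufb7, plus) and chr2:90904730-90904759 (Ndufs3, minus). In these members the match shown began 28, 20 and 27 bases before the start. Ndufs3 had another match, which began 2 bases after the start.
Cox6b1: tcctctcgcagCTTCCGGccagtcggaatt
Ndufb7: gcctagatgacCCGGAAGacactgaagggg
Ndufs3: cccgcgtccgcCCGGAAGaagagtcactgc

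By outcome of the comparison described next, the ETS letters were in 6 of 15 promoters of members called higher, 2 of 5 called lower and 6 of 45 not called. The members with a match were Atp5j, Cox6b1, Cox8a, Ndufb6, Ndufb7 and Ndufs3 among those higher, and Atp5l and Ndufs8 among those lower. The longer NRF1 core was in 2 of 15, 0 of 5 and 3 of 45 promoters, and the YY1 letters were in 2 of 15, 1 of 5 and 7 of 45. These shares were not tested, and the letters occurred in members of both directions and in members that were not called.

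Total counts per library were 24069177 to 35555013. Levels are given as CPM, each library's counts scaled to a common size after edgeR's TMM correction, and a count of 3 corresponded to 0.0852 to 0.123 CPM. Reads at a ribosomal RNA locus made up 8.03 to 9.86% of counts in frontal and 5.97 to 6.07% in parietal-interparietal libraries. Markers of osteoblasts, the bone-forming cells, were detected in all libraries, with summed levels of 2596 and 2608 CPM in frontal and 3645 and 3643 CPM in parietal-interparietal libraries. Markers of other cells also differed between the groups, in either direction: 17 of 21 tested muscle markers were lower in frontal libraries (summed levels 2480 to 2619 against 3329 to 3337 CPM), as were 7 of 9 meninges markers (786 to 806 against 1252 to 1259 CPM) and 6 of 9 red cell markers (9670 to 11381 against 13559 to 13668 CPM), while 8 of 18 neuron markers were higher and 5 lower (1481 to 1491 against 1396 to 1411 CPM). The near-equal neuron sums hide large opposite differences. Factors of the developing cortex were nearly confined to the frontal libraries: Eomes was at 53.3 and 53.6 against 0.246 and 0.0737 CPM, Tbr1 at 26.7 and 28.3 against 0.164 and 0.0737, Neurod6 at 48.4 and 42.6 against 0.655 and 0.7, and Neurod2 at 48.9 and 49.2 against 1.51 and 1.33, and Pax6 was 6.12-fold higher. The neurofilament genes Nefl and Nefm were 2.43-fold and 2.26-fold lower. No marker on these 4 lists was at 0 in all libraries. Their part in the results below was not tested.

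The comparison asks how the frontal bone differs from the parietal and interparietal bones. Of the 83 entries, 80 passed the filter on low counts. Counts were compared with edgeR's quasi-likelihood test (2 libraries per group, two-sided), and a gene was called at an adjusted p under 0.05 over all 20947 genes tested. Among the subunits 26 of 80 were called (32.5%): in frontal libraries 18 were higher and 8 were lower, and 54 were not called. Over all genes 12.7% were called, 6.25% higher and 6.44% lower. Most subunits have many counts, and more counts give the test more power: among the 4057 genes averaging 50 CPM or more, 23.7% were called, 11% higher and 12.6% lower. Of the 68 subunits at that level 21 were called (30.9%), 13 higher (19.1%) and 8 lower (11.8%). The share called lower was thus close to that of all genes averaging 50 CPM or more, and the share called higher was above it. Levels beyond that limit were not matched.

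The differences were small. Called members differed by 1.21-fold to 1.93-fold, 6 of them by at least 1.5-fold and 0 by 2-fold. The median log2 fold change, frontal minus parietal-interparietal, was 0.08 over the 80 tested members and 0.01 over all genes. It was above 0 in 48 members and below 0 in 32, and over all genes in 10613 and 10334. Both frontal libraries lay above both parietal-interparietal libraries in 35 members (43.8%) and below them in 16 (20%), and the groups overlapped in 29. Over all genes these shares were 28.9% and 28.4%. Among genes averaging 50 CPM or more they were 35.1% and 34.7%, against 27 (39.7%) and 15 (22.1%) of the 68 members at that level. Summed over all members the level was 16965 and 18382 CPM in the frontal and 17514 and 17698 CPM in the parietal-interparietal libraries. These sums overlapped, so the family as a whole did not stand apart in either group, and the called members moved in opposite directions within complexes I, III and V.

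**Figure D1:**
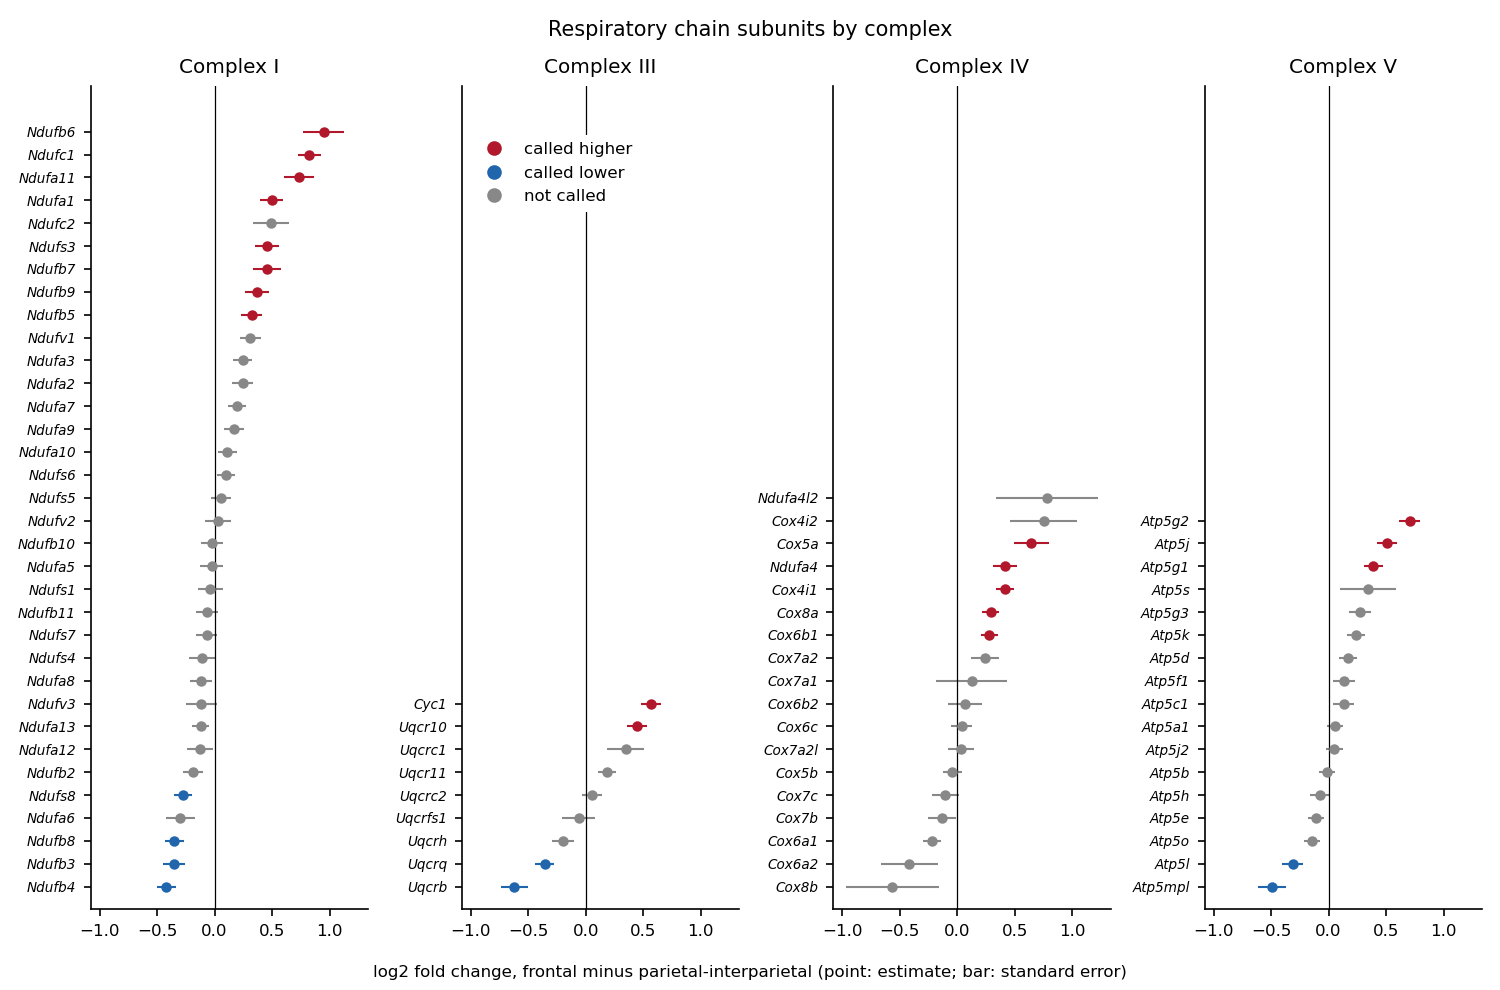
Log2 fold change (x axis, frontal minus parietal-interparietal, edgeR) of the tested subunits of complexes I, III, IV and V that are reported here, with the standard error as a bar. Red points are the 18 members called higher and blue points the 8 called lower; complexes I, III and V hold both colours, and complex IV holds red points and no blue ones.

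How many members were called depended on the libraries. The share of all genes called fell or rose with it when a library was left out or the parietal-interparietal pair was summed. The 2 frontal libraries differed from each other by a median of 0.18 log2 units per member and the 2 parietal-interparietal libraries by 0.04. Without parietal-interparietal library 1 or 2 the spread was taken from the frontal pair, the lone library being assumed to vary like them, and 7 and 4 members were called. Without frontal library 1 or 2 the spread was taken from the closer pair, and 53 and 60 members were called. When the 2 parietal-interparietal libraries were summed, 5 were called. Ndufc1, Ndufa11 and Atp5g2 (higher) and Uqcrb (lower) remained called under each of the 14 alternatives tried.

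Complex I was represented by 35 members, of which 8 were called higher, 4 lower and 23 not called (34.3% called, median log2 fold change 0.06). Its summed level was 4735 and 4947 CPM in the frontal and 4751 and 4802 CPM in the parietal-interparietal libraries. Of the 7 core subunits 1 was called higher and 1 lower. Ndufs3, a core subunit of the arm that joins NADH oxidation to quinone reduction (chr2:90894634-90904827), was at 76.0 and 88.5 CPM in frontal libraries 1 and 2 and at 61.9 and 58.1 CPM in parietal-interparietal libraries 1 and 2. Both frontal values were above the others, by 0.46 ± 0.10 on the log2 scale (SE; edgeR adjusted p = 0.0154). Ndufs8, a core iron-sulfur subunit (chr19:3908863-3912774), was at 177 and 188 against 222 and 220 CPM. It was lower in both frontal libraries, by a log2 fold change of −0.28 ± 0.08 (adjusted p = 0.0409). Without parietal-interparietal library 1 or 2 the adjusted p was 0.135 or 0.26 for Ndufs3 and 0.467 or 0.426 for Ndufs8. Of the 50-base stretches in transcripts of Ndufs3 16.1% also occur in other annotated genes.

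The other core subunits named here did not pass the test. Ndufv1, the flavoprotein that oxidises NADH, was just outside the threshold at 97.9 and 109 against 81.0 and 86.2 CPM (log2 fold change 0.31 ± 0.09, edgeR adjusted p = 0.0501). Its frontal values lay above the parietal-interparietal ones. Ndufv1 was called higher by DESeq2, with DESeq2 size factors, with counts halved, with a filter of 1 CPM, with no filter and with a replicate block. It was not called without scaling, with an offset for GC content, or with ribosomal and mitochondrial genes left out. The iron-sulfur subunit Ndufs1 was at 75.5 and 93.7 against 85.7 and 88.0 CPM. Ndufs7, which passes electrons to quinone, was at 74.4 and 80.7 against 79.8 and 83.1 CPM. Ndufv2, the iron-sulfur partner of Ndufv1, was at 206 and 269 against 227 and 237 CPM. In these 3 genes the groups overlapped, and the log2 fold change of Ndufv2 was 0.21 without frontal library 1 and −0.18 without frontal library 2.

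Among the 28 accessory subunits of complex I, 7 were called higher and 3 lower. Ndufc1, a small membrane subunit (chr3:51404677-51408988), was at 52.0 and 52.6 CPM in the frontal and 28.8 and 30.3 CPM in the parietal-interparietal libraries. The values of a group nearly coincided, and the frontal level was 1.77-fold higher (log2 fold change 0.82 ± 0.10, edgeR adjusted p = 0.000587). Ndufa11, a membrane subunit (chr17:56717767-56722141) and one of the genes with the NRF1 core shown above, was at 65.9 and 50.04 against 35.6 and 33.9 CPM. Its frontal libraries differed from each other but both lay above the other group, by 1.67-fold (0.74 ± 0.13, adjusted p = 0.00535). Ndufb6, of the membrane arm (chr4:40270591-40279421), had the largest fold of all called members, 1.93, at a low level of 12.4 and 11.2 against 6.71 and 5.53 CPM (0.95 ± 0.18, adjusted p = 0.00778). Smim27 overlaps 39% of the exon bases of Ndufb6, so its reads may be divided between these genes. Without parietal-interparietal library 2 the adjusted p of Ndufb6 was 0.0911.

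The 4 other accessory subunits called higher differed by 1.25-fold to 1.41-fold. Ndufa1, an X-linked membrane subunit, was at 55.7 and 59.4 against 39.4 and 42.3 CPM (edgeR adjusted p = 0.00866). Ndufb7 was at 79.1 and 60.9 against 50.1 and 51.9 CPM (0.0357), with frontal library 1 well above frontal library 2. Ndufb9 was at 145 and 178 against 122 and 128 CPM (0.0391), and Ndufb5 at 172 and 200 against 147 and 150 CPM (0.0412). For these 4 subunits frontal values lay above the others in each case, and in Ndufb9 and Ndufb5 frontal library 2 was the higher. Exons of neighbours overlap 19.5% of the exon bases of Ndufb9 and 12.3% of those of Ndufb5 (Mrpl47). These 4 calls were lost without either parietal-interparietal library.

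The 3 accessory subunits called lower all belong to the membrane arm. Ndufb4 (chr16:37647170-37654453) was at 215 and 232 CPM in frontal and 290 and 306 CPM in parietal-interparietal libraries. Both frontal values were below the others, by a log2 fold change of −0.42 ± 0.08 (edgeR adjusted p = 0.00716), and 18.3% of its 50-base stretches also occur in other annotated genes. Ndufb8 was at 144 and 131 against 172 and 179 CPM (−0.35 ± 0.08, adjusted p = 0.0214). Ndufb3 was at 95.2 and 113 against 129 and 136 CPM (−0.35 ± 0.10, adjusted p = 0.0393). Among the 10 tested Ndufb genes, which encode neighbours in the membrane arm, 4 were thus higher, 3 lower and 3 not called. Of the 12 complex I calls 3 remained without parietal-interparietal library 1 and 2 without library 2, the adjusted p of the others reaching 0.467.

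**Figure D2:**
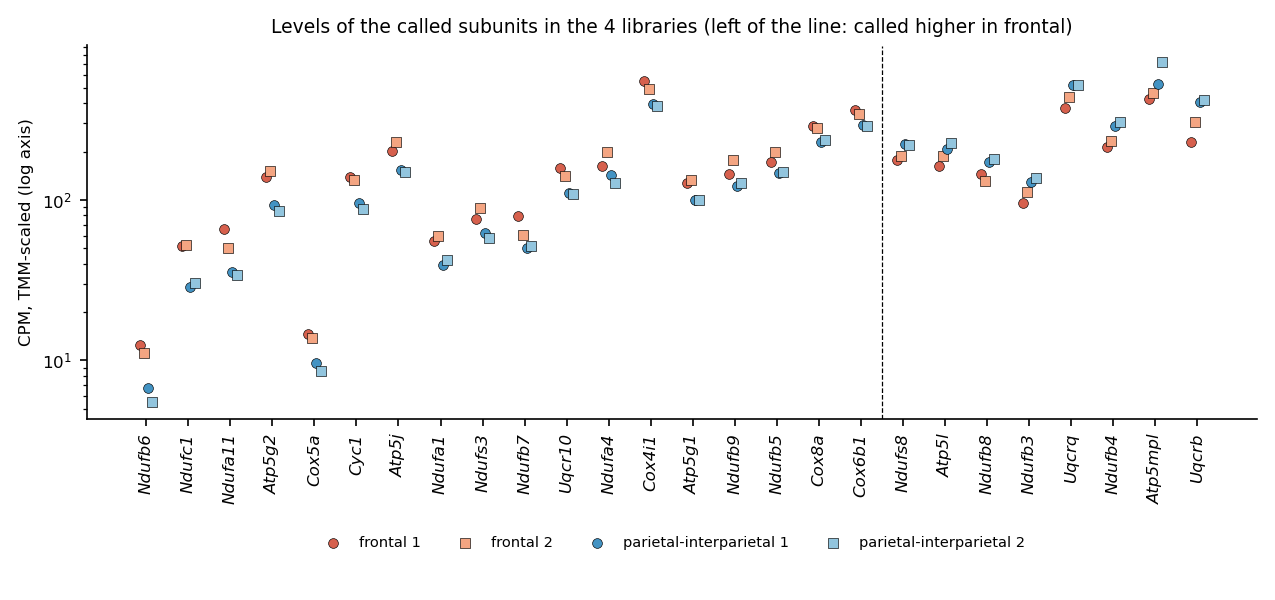
CPM (log axis, TMM-scaled) of the 26 called members in each of the 4 libraries, with members called higher in frontal libraries to the left of the dashed line and those called lower to the right. In each member both frontal values lie on the same side of both parietal-interparietal values; the gap is wide in Ndufc1 and Ndufb6 and narrow in members such as Ndufs8.

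Complex III had 9 members, all tested: 2 were called higher, 2 lower and 5 not called (44.4% called, median log2 fold change 0.05). Cyc1, cytochrome c1 (chr15:76343523-76346260), which hands electrons to cytochrome c, was at 138 and 134 CPM in frontal and 95.4 and 88.3 CPM in parietal-interparietal libraries. The groups were well apart, with a fold of 1.48 (log2 fold change 0.57 ± 0.08, edgeR adjusted p = 0.00211). The small subunit Uqcr10 (chr11:4701973-4704342) was at 159 and 141 against 111 and 109 CPM and was 1.36-fold higher (0.45 ± 0.09, adjusted p = 0.00887). Cyc1 had an adjusted p of 0.0901 without parietal-interparietal library 2, and the call of Uqcr10 was lost without either library of that group.

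Uqcrb, a small subunit of complex III (chr13:66900617-66905378), was at 229 and 307 CPM in frontal and 407 and 420 CPM in parietal-interparietal libraries. It was lower in both frontal libraries, most in library 1, with the largest fall of any member, 1.54-fold (log2 fold change −0.62 ± 0.12, edgeR adjusted p = 0.00739). The log2 fold change of Uqcrb was −0.43 without frontal library 1 and −0.86 without frontal library 2. Of the stretches of 50 bases in its transcripts 25.4% also occur in 4 other annotated genes, so the counting of its reads is uncertain. Uqcrq, another small subunit (chr11:53427922-53430831), was at 377 and 435 against 522 and 518 CPM (−0.36 ± 0.08, adjusted p = 0.0189). Uqcrb and Uqcrq were thus higher in the group in which Cyc1 and Uqcr10 were lower.

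The Rieske iron-sulfur protein Uqcrfs1 was at 68.3 and 99.5 CPM in frontal and 88.2 and 87.3 CPM in parietal-interparietal libraries, so that the frontal libraries lay on either side of the other group (edgeR adjusted p = 0.834). The log2 fold change of Uqcrfs1 was 0.18 without frontal library 1 and −0.37 without frontal library 2. Summed over complex III the level was 2083 and 2267 CPM in frontal and 2387 and 2391 CPM in parietal-interparietal libraries. Both frontal sums were lower although the median fold change of the subunits was slightly above 0. Members with many counts weigh most in a sum, such as Uqcrh (605 and 750 against 772 and 786 CPM, not called). In mean CPM, frontal against parietal-interparietal, Uqcrb (268 against 413) and Uqcrq (406 against 520), both called lower, differed more than Uqcrh (677 against 779). The electron carrier Cycs, cytochrome c, was at 90.7 and 92.4 against 83.9 and 85.3 CPM (log2 fold change 0.11, adjusted p = 0.42).

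**Figure D3:**
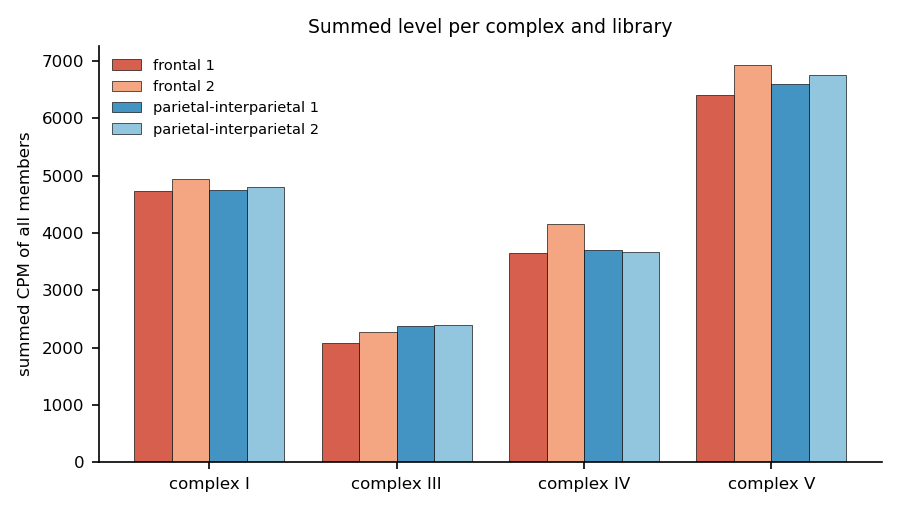
Summed CPM of all members of each complex (y axis, from 0) in the 4 libraries. Complex V runs from 6408 to 6926 CPM and complex III from 2083 to 2391 CPM; frontal and parietal-interparietal bars overlap in complexes I, IV and V but not in complex III.

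In complex IV, cytochrome c oxidase, 18 of 20 members were tested. At an adjusted p under 0.05 in edgeR, 5 were called higher, 0 lower and 13 not called (27.8% called, median log2 fold change 0.10). DESeq2 likewise called 0 lower, and 7 of the 18 had an unadjusted edgeR p under 0.05 in either direction. Over all genes 12.7% were called and 6.44% were called lower. Among genes averaging 50 CPM or more these shares were 23.7% and 12.6%. The absence of lower calls did not hold in 3 alternatives: Cox6a1 was called lower with no filter, Cox6a1 and Cox6a2 without frontal library 1, and Cox5b, Cox6a1, Cox6c, Cox7a2l, Cox7b and Cox7c without frontal library 2. Grouped by symbol instead, with Ndufa4 and Ndufa4l2 in complex I, complex IV had 4 of 16 higher and complex I had 9 higher and 4 lower of 37. Cox4i1, the general isoform of subunit 4 (chr8:120668222-120674207), was at 547 and 495 CPM in frontal and 396 and 386 CPM in parietal-interparietal libraries. The groups did not overlap, and the fold was 1.33 (log2 fold change 0.41 ± 0.08, adjusted p = 0.00666). Cox5a (chr9:57521274-57532426) had the lowest level per length of the general subunits and was at 14.7 and 13.9 against 9.70 and 8.62 CPM (0.64 ± 0.15, adjusted p = 0.0206), and 12.8% of its exon bases overlap the gene model Gm26631. Ndufa4, which carries a complex I name but is a subunit of complex IV, was at 163 and 198 against 143 and 127 CPM (0.42 ± 0.10, adjusted p = 0.027).

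The other called subunits of complex IV differed least. Cox8a, the general isoform of subunit 8, was at 288 and 282 against 229 and 236 CPM (edgeR adjusted p = 0.0273), and Cox6b1, the general isoform of subunit 6b with the ETS letters shown above, was at 363 and 343 against 294 and 287 CPM (0.033). The libraries of each group were close, and the folds were 1.22 and 1.21. All 5 calls of complex IV were lost without parietal-interparietal library 1 or 2, with adjusted p of 0.103 to 0.475 and 0.192 to 0.485. Cox6a1, with the NRF1 core shown above, went the other way without passing the test, at 430 and 485 against 534 and 533 CPM (log2 fold change −0.22, adjusted p = 0.0935). Cox7b, at 362 and 493 against 469 and 469 CPM, and Cox7a2, at 249 and 338 against 247 and 249 CPM, varied more between the frontal libraries than between the groups.

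Several complex IV subunits exist as a general form and a form restricted to certain tissues. Per kilobase of exon, the general forms exceeded the restricted ones in all 4 libraries. The ratio was 70.5 to 117 for Cox4i1 over Cox4i2, 25.9 to 57.9 for Cox6a1 over the heart and skeletal muscle form Cox6a2, and 75.5 to 97.7 for Cox7a2 over the muscle form Cox7a1. It was 13.3 to 19.3 for Cox6b1 over the testis form Cox6b2, 69.1 to 151 for Cox8a over the muscle form Cox8b, and 59.6 to 177 for Ndufa4 over its hypoxia-induced relative Ndufa4l2. Cox7a2l, which acts in the assembly of supercomplexes, was close to Cox7a2, which exceeded it 1.36-fold to 1.60-fold. Cox8c, a testis form, had no count in any library, and Cox7b2 had 8, 8, 2 and 0 counts.

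No restricted isoform was called by edgeR in the comparison itself. Of the 7 alternative forms tested, which include Cox7a2l, 1 had an unadjusted edgeR p under 0.05. Of the alternatives that kept all libraries, only no filter gave a call among these forms, with Cox4i2 higher. Some of these forms were also called with a frontal library left out, where the spread came from the closer pair. Cox4i2, known from lung and from oxygen-sensing cells, was at 7.997 and 4.71 CPM in frontal and 4.13 and 3.39 CPM in parietal-interparietal libraries (log2 fold change 0.75 ± 0.29, adjusted p = 0.122). Ndufa4l2 was at 4.10, 1.68, 1.68 and 1.66 CPM in frontal libraries 1 and 2 and parietal-interparietal libraries 1 and 2, so that only frontal library 1 stood apart. Cox6a2 was at 19.7 and 9.97 against 19.0 and 20.4 CPM, where frontal library 2 stood apart. Cox8b was at 1.39 and 1.22 against 2.17 and 1.70 CPM, and Cox7a1 at 2.68 and 2.81 against 2.37 and 2.65 CPM. The log2 fold changes of the muscle forms were −0.42 ± 0.25 (Cox6a2), −0.56 ± 0.41 (Cox8b) and 0.13 ± 0.31 (Cox7a1), and the median of the 21 muscle markers was −0.51. These standard errors are too large to tell these forms from the muscle markers or from no change.

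**Figure D4:**
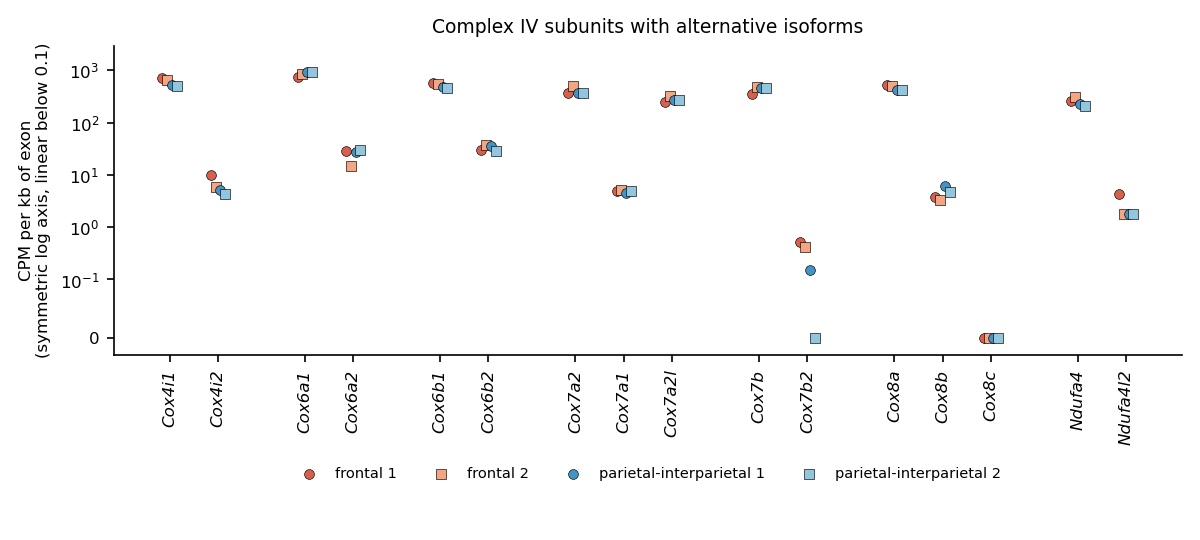
CPM per kilobase of exon (symmetric log axis, linear below 0.1) of complex IV subunits that have alternative isoforms, in each of the 4 libraries. In each set the general form, at the left, lies above the restricted forms in all libraries; Cox7a2l lies close under Cox7a2, Cox7b2 is near 0 and Cox8c is at 0.

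Complex V, ATP synthase, had 18 members, of which 17 were tested. Of these, 3 were called higher, 2 lower and 12 not called (29.4% called, median log2 fold change 0.13). Subunit c, which forms the rotating ring in the membrane, is made from 3 genes for the same mature protein. Atp5g2 (chr15:102662864-102672352), with the NRF1 core shown above, was at 139 and 151 CPM in frontal and 93.3 and 84.8 CPM in parietal-interparietal libraries. The frontal level was 1.63-fold higher with no overlap (log2 fold change 0.71 ± 0.09, edgeR adjusted p = 0.0009). Atp5g1 (chr11:96068852-96075670) was at 127 and 134 against 99.5 and 99.8 CPM (0.39 ± 0.08, adjusted p = 0.0119). Atp5g3 was at 191 and 226 against 169 and 176 CPM and was not called (0.27 ± 0.09, adjusted p = 0.0856). All 3 genes thus lay higher in both frontal libraries, and 2 of them passed the test. Of the 50-base stretches of Atp5g2 36.7% also occur in 2 other annotated genes, so its reads could be split or lost in the counting.

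Atp5j, subunit F6 of the peripheral stalk (chr16:84827866-84835625), was at 201 and 230 CPM in frontal and 153 and 150 CPM in parietal-interparietal libraries. It was 1.42-fold higher (log2 fold change 0.51 ± 0.09, edgeR adjusted p = 0.00473). Gabpa, the DNA-binding subunit of GABP, is its neighbour, and exons of Gabpa overlap 12.7% of the exon bases of Atp5j. Gabpa was not called and was lower in both frontal libraries, at 45.9 and 52.0 against 60.8 and 58.3 CPM (−0.28 ± 0.10, adjusted p = 0.0942). Without parietal-interparietal library 1 or 2 the adjusted p of Atp5j was 0.0838 or 0.103.

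The 2 members of complex V called lower are small membrane subunits. Atp5mpl (chr12:111961375-111966977) was at 425 and 464 CPM in frontal and 529 and 719 CPM in parietal-interparietal libraries, with parietal-interparietal library 2 far above library 1. Its log2 fold change was −0.49 ± 0.12 (edgeR adjusted p = 0.026), but −0.26 without parietal-interparietal library 2 (adjusted p = 0.47). Atp5l, subunit g, was at 163 and 187 against 208 and 227 CPM (−0.31, adjusted p = 0.0487). The catalytic subunits of F1 were not called. Atp5b, the beta subunit and the member with the most counts, was at 1355 and 1522 against 1443 and 1461 CPM, and the alpha subunit Atp5a1 was at 799 and 746 against 743 and 747 CPM. Both overlapped between groups, with log2 fold changes of −0.01 and 0.05, and that of Atp5b was 0.069 without frontal library 1 and −0.11 without frontal library 2.

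Levels per length differed widely among subunits of the same complex. In complex I the mean level over the 4 libraries ran from 13.6 CPM per kilobase of exon in Ndufb6 to 396 in Ndufa7, with a median of 126. In complex III it ran from 44.2 in Uqcrc2 to 1331 in Uqcrh, the hinge protein, with a median of 253. Leaving out the restricted isoforms and Cox7a2l, complex IV ran from 18.2 in Cox5a to 868 in Cox6a1, with a median of 448. Leaving out Atp5s, which is no structural subunit, complex V ran from 23.4 in Atp5g1 to 1633 in Atp5e, with a median of 312. Small subunits headed complexes III and V, and Ndufb6 and Cox5a, both called higher in frontal libraries, stood lowest in their complexes. Exons of rarely used transcripts count toward the length and can lower a value per length.

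The libraries of a group were also compared with each other by base composition. Across the 80 tested members the log2 difference of frontal library 1 minus 2 rose with the GC content of the transcript (Pearson r = 0.42, Spearman rho = 0.44), and across 15559 protein-coding genes r was 0.21. The parietal-interparietal libraries showed r = 0.04 across the members. The fold change between the groups had r = 0.20 with GC content across the members and 0.01 across all protein-coding genes. The points of each correlation are genes measured in the same libraries and not independent replicates. With an offset for GC content in each library, 19 members were called higher and 8 lower. Uqcrc1 (255 and 162 CPM) and Ndufc2 (81.0 and 123 CPM) differed most between the frontal libraries among members averaging 50 CPM or more. Neither was called in the comparison itself, but Ndufc2 (log2 fold change 0.49 ± 0.16, edgeR adjusted p = 0.0691) was the member gained with the GC offset. It was also called higher by DESeq2, with no filter, with the replicate block and without frontal library 1, and Uqcrc1 with no filter and without frontal library 2.

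**Figure D5:**
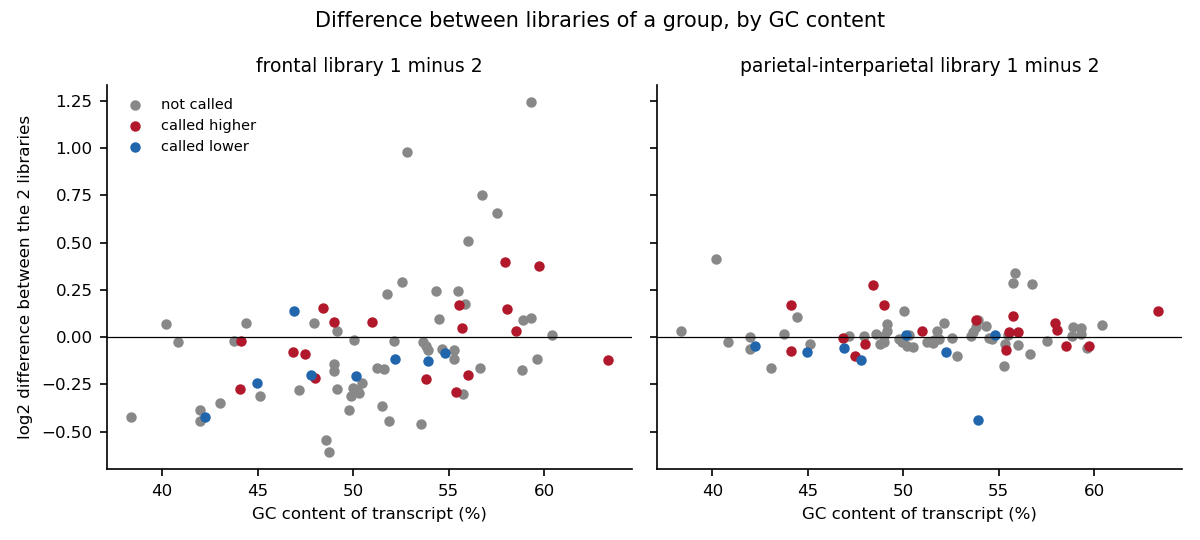
Log2 difference between the 2 libraries of a group (y axis) against the GC content of the transcript in percent (x axis) for the 80 tested members, frontal pair at left and parietal-interparietal pair at right. The frontal differences spread more widely and rise with GC content (r = 0.42), and the parietal-interparietal differences lie closer to 0 (r = 0.04).

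Genes outside the family but in the same pathway or, as with the hypoxia response, related to it were counted in the same fit. They are called other pathway genes below. Of 184 tested genes on 10 lists 21 were higher in the frontal libraries and 12 lower (17.9%, against 12.7% of all genes). Among all genes averaging 50 CPM or more the share called was 23.7%, and the listed genes were not compared by level. The mitochondrial ribosomal proteins, which translate the mitochondrially encoded subunits, held most of the higher calls: 16 of 77 were higher and 2 lower, with a median log2 fold change of 0.11. Mrpl12 was at 90.5 and 75.1 against 53.2 and 52.9 CPM, and Mrpl23 at 53.8 and 41.0 against 27.1 and 27.1 CPM. Mrps28 was lower, at 18.6 and 24.3 against 38.3 and 36.04 CPM. The edgeR adjusted p was 0.0037, 0.00372 and 0.00476 in this order, and in none of the 3 genes did the groups overlap.

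Of the 13 protein genes of the mitochondrial genome 0 were called higher and 2 lower in edgeR, 5 had an unadjusted p under 0.05, and their median log2 fold change was −0.25. mt-Nd4, a proton-pumping subunit of complex I, was at 717 and 914 CPM in frontal and 1519 and 1495 CPM in parietal-interparietal libraries (log2 fold change −0.89 ± 0.10, adjusted p = 0.000501). mt-Nd5, of the same arm, was at 442 and 500 against 658 and 613 CPM (−0.43 ± 0.08, adjusted p = 0.00723). Both frontal libraries were lower for these genes. mt-Co3, a core subunit of complex IV, lay the other way without passing the test, at 172 and 148 against 126 and 133 CPM (0.30 ± 0.09, adjusted p = 0.06).

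Assembly factors and regulators showed single calls in either direction. Of 14 complex I assembly factors Nubpl was higher (log2 fold change 0.74) and Tmem126b lower (−0.54), and of 22 complex IV assembly factors Pet100 was higher (0.61) and Cox15 (−0.55), which makes heme A, and Cmc1 (−0.83) were lower. Among 8 complex II genes, subunits of succinate dehydrogenase and its assembly factors, Sdhaf4 was lower (−0.47) and 0 were higher. None of the 6 complex III assembly genes was called by edgeR, and 0 had an unadjusted p under 0.05. The ATP synthase inhibitor Atpif1 was at 804 and 1124 against 1464 and 1436 CPM (−0.59 ± 0.12, adjusted p = 0.0123) and was lower in both frontal libraries.

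Of 13 regulators Tfam, which packages mitochondrial DNA and acts in its transcription, was higher at 53.2 and 57.0 against 39.6 and 38.5 CPM (log2 fold change 0.50 ± 0.10, edgeR adjusted p = 0.00792). The coactivator Ppargc1b was lower at 4.31 and 5.82 against 8.02 and 9.62 CPM (−0.80 ± 0.22, edgeR adjusted p = 0.0395). In coenzyme Q synthesis Coq6 was higher (0.51) and Pdss2 lower (−0.56) among 13 genes. Of 13 genes of the hypoxia response, Epas1, which encodes HIF-2 alpha, was lower (−0.55) and 0 were higher.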

How the data were processed

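Poly(A) RNA of 4 libraries was measured, 2 per group as the labels name them. The deposited values are raw counts, whole numbers per Ensembl gene. The submitters' processing notes name build GRCm38, featureCounts 2.0.1, HISAT2 2.1.0 and Trim Galore 0.6.7. No source used here states the annotation release, the strand setting or how reads with several matches were counted, so genes with near-identical copies or overlapping neighbours are uncertain. Even counts made up 68.3 to 74.4% of counts from 1 to 20, so counts were also analysed halved.

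Symbols came from GENCODE M21, which matched 55227 of 55487 identifiers. Genes were filtered with filterByExpr (minimum count 10), scaled by TMM and tested with edgeR 4.0.16 in R 4.3.3 (quasi-likelihood, group as the only term, 2 residual degrees of freedom, Benjamini-Hochberg over 20947 genes). The procedure was also run on simulated data with the same spread in all genes and libraries. The real pairs differed in spread, so that run cannot show how reliable the calls are. The standard error was taken as |log2 fold change| over the root of the F statistic. Cox7b2, Cox8c and the second Atp5o entry were not tested, and the last 2 of these had no counts. The floor of 3 counts covers counting error alone. Levels per kilobase used the union of exons of basic protein-coding transcripts. Positions are 1-based GRCm38 coordinates, and promoters are RefSeq (GRCm38.p6).

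Named genes were the called members, isoform sets, core subunits, and up to 3 genes of each other list with the smallest unadjusted p. Uqcrc1, Uqcrc2, Uqcrh, Ndufa7, Ndufc2, Atp5e, Atp5k, Atp5s, Cox5b, Cox6c, Cox7c, the neuron markers and the genes outside the family rule (Ndufab1, Ndufb1-ps, Cox6c2, Ndufs6b) were named after their values were seen. The values of 1 member are not reported here. The members and lists were chosen with earlier results of these data known. Replicate numbers were treated as names only. The alternatives were DESeq2 1.42.0, DESeq2 size factors, no scaling, other filters, counts halved, the pair summed, a replicate block, libraries left out, ribosomal and mitochondrial genes left out, and a GC offset, which was added after seeing the data. Figures were drawn with matplotlib 3.10.9.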

Additional observations from a re-analysis of the deposited data

How the results depend on the processing

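With the 2 parietal-interparietal libraries summed, 5 members were called (4 higher, 1 lower) and 6 of the other pathway genes, against 26 (18 and 8) and 33. Leaving out 1 library gave 4 to 60 members called (3 to 35 higher, 1 to 28 lower) and 6 to 89 other pathway genes, the low counts without a parietal-interparietal library. The median log2 fold change of all members was 0.032 with no scaling beyond the total count, which moved the median of all genes to −0.05, and 0.059 to 0.13 with 1 library left out. The median of complex III was −0.00038 to 0.11 with 1 library left out, and that of complex V was 0.080 without scaling and 0.033 to 0.12 with 1 library left out. Without scaling 12 members were called higher and 8 lower. The sign of some log2 fold changes depended on the frontal library left out, library 1 or library 2. Examples are Ndufv2 (0.21 or −0.18), Cox7a2l (0.21 or −0.18), Uqcrfs1 (0.18 or −0.37) and Atp5b (0.069 or −0.11). Cox6c, which is not in the count of named members below, was likewise higher without library 1 and lower without library 2. The causes were not tested. DESeq2 called 20 higher and 8 lower, and no filter 26 and 10. Same-numbered libraries did not deviate together (r = 0.0179 across 20947 genes), and a replicate block called 29 members, 20 higher and 9 lower. Over the named members 543 values kept their direction and side of the threshold, 68 lost the call, 29 gained it and 4 reversed. Over the named genes of the other lists 355 kept it, 39 lost it and 23 gained it. Depth limits the rare members most: Cox7b2, Cox8c, Cox8b, Cox7a1, Ndufa4l2 and Atp5s averaged below 5 CPM and Cox4i2 5.06 CPM.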

Other observations

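Some subunits of the chain carry symbols outside the families above. Ndufab1, the acyl carrier protein that is also a complex I subunit, was at 139 and 207 CPM in frontal and 214 and 217 CPM in parietal-interparietal libraries and was not called (log2 fold change −0.31, adjusted p = 0.204 in edgeR). Ndufb1-ps, annotated as a non-coding gene, was at 123 and 103 against 91.0 and 91.8 CPM (0.30, adjusted p = 0.0712). Usmg5, a small membrane subunit of ATP synthase, was at 169 and 214 against 141 and 141 CPM and was called higher (0.44 ± 0.11, adjusted p = 0.0232). Pseudogene copies whose symbols match the family names had low counts. The highest were Cox6c2 at 20.4 and 19.0 against 20.05 and 19.9 CPM and Ndufs6b at 6.71 and 7.21 against 5.52 and 5.27 CPM. Neither of them was called. The counts of copies under other symbols were not examined.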
